A study of Mus musculus with 15 samples.

Results

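The extracellular matrix genes described here encode the non-collagen proteins of the matrix of skeletal muscle and the enzymes that cross-link, fold and cut it. They are 35 genes, chosen by symbol from a written list, and all 35 were found among the 14272 named genes of the table. Transcript levels were measured by RNA sequencing of total RNA in quadriceps of male DBA/2J-mdx mice, a strain that lacks dystrophin and serves as a model of Duchenne muscular dystrophy. All 15 libraries come from that genotype. The vehicle group (5 libraries) was injected intraperitoneally with DMSO, the solvent, 7 times a week. The weekly group (5 libraries) was given the synthetic glucocorticoid prednisone at 1 mg/kg on 1 occasion a week and vehicle on the other 6, and the daily group (5 libraries) received 1 mg/kg 7 times a week. Age is 6 months in the protocol and about 7 months in the sample labels, and no healthy animals are among the samples. Separate animals are not named in the labels for the libraries of 1 group. The p-values therefore speak of the spread among these samples alone, and part of it may be technical.

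The matrix around muscle fibres has several layers. Laminins and nidogens form the basement membrane that ties each fibre to its surroundings. Outside it, collagen fibrils are spaced and coated by small leucine-rich proteoglycans such as decorin and fibromodulin, elastic fibres are built on fibrillin, and adhesive or matricellular glycoproteins such as fibronectin, tenascin-C and periostin are laid down during repair. Lysyl oxidases cross-link the fibrils, the chaperone HSP47 (Serpinh1) folds procollagen, and matrix metalloproteinases and their inhibitors turn the matrix over. In dystrophic muscle this matrix accumulates as fibrosis, and glucocorticoids are known to act through a receptor that binds DNA near its target genes.

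The RefSeq promoter table (build GRCm38.p6) held 22 of the 35 genes, in 26 windows of 300 bases each (250 before and 50 after the start). The sequences below are the 250 bases before the start of the 4 proteoglycan genes on which the results turn most, and of Lama2, the laminin gene that was higher in daily libraries after a change of scaling. They are written 5′ to 3′ on the gene's strand, and capitals mark matches, on either strand, to AGAACA (a hexamer of the element bound by the glucocorticoid receptor) or TATAAA (the TATA box).
Fmod chr1:134037004-134037253 (plus strand): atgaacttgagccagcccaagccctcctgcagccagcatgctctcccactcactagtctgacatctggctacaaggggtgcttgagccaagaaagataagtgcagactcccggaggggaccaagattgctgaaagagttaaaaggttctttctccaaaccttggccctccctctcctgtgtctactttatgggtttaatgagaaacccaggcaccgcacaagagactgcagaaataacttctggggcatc
Prelp chr1:133921402-133921651 (minus strand): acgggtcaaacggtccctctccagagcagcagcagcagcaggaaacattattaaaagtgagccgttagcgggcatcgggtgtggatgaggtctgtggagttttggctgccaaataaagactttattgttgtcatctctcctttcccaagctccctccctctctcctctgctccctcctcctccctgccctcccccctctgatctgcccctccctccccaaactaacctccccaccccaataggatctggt
Ogn chr13:49607765-49608014 (plus strand): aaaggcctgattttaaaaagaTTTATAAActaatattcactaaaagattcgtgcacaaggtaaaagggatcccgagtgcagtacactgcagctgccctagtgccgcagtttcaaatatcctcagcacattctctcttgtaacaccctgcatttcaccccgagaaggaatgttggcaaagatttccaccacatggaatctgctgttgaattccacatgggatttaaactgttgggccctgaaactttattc
Vcan chr13:89742513-89742762 (minus strand): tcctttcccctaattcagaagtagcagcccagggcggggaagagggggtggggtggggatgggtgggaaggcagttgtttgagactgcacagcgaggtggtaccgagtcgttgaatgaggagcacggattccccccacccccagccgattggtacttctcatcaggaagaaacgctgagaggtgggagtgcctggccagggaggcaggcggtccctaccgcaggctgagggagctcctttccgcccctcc
Lama2 chr10:27616943-27617192 (minus strand): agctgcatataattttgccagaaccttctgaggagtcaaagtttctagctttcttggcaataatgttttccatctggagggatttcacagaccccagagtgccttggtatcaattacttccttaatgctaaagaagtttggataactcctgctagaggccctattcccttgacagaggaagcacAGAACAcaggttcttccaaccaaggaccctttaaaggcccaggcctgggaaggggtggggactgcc
AGAACA was found in 4 of the 26 windows (1 each of Lama2, Sparc, Fbln1 and Bgn), against 19.0% of all 32851 promoter windows of the same length. In Lama2 the match begins 66 bases before the RefSeq start, which lies inside the longer gene of the GENCODE annotation. The windows of Fmod, Prelp and Vcan held neither motif. Ogn held 2 overlapping TATAAA matches, 1 on each strand, and TATAAA occurs in 13.6% of all windows. A match describes letters only. Fmod (chr1:134037254-134048277, plus strand) and Prelp (chr1:133910304-133921414, minus strand) are neighbours on chromosome 1, 115839 bases apart with no protein-coding gene between them in GENCODE M21. Lum and Dcn neighbour each other on chromosome 10 with 46984 bases between them, and Aspn (chr13:49544443-49567565, plus strand) and Ogn (chr13:49608046-49624501, plus strand) lie 40480 bases apart on chromosome 13 with Omd, another small proteoglycan gene, between them.

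Levels are given in CPM, reads scaled to a common library total without division by gene length. Depth ran from 2780768 reads in weekly 4 to 11052552 in weekly 2, so that 3 reads are worth 0.271 to 1.08 CPM, a floor for counting error only, and the fewest reads behind any value of the 35 genes are the 26 of Fbln5 in daily 4. Libraries differed in spread: the median coefficient of variation over the 35 genes was 5.26% among vehicle libraries, 46.6% among weekly libraries (27.7% without weekly 4) and 18.5% among daily libraries. A pair of libraries stood apart. In weekly 4 the 35 genes took 0.660% of all values, against 0.173% to 0.325% in the other weekly, 0.242% to 0.261% in the vehicle and 0.163% to 0.255% in the daily libraries, while the mitochondrial ribosomal RNA mt-Rnr2 took 0.570% there and 6.23% to 9.44% in the other weekly libraries. In daily 3 the transcripts Gm26924 and Lars2 took 20.6% and 7.80% of the values, which lowers every other gene on the CPM scale, and 32 of the 35 genes lay below the lowest vehicle library there, as did 77.7% of all genes tested. Values without weekly 4, and with TMM scaling (a scaling by a trimmed mean of ratios between libraries), are therefore set beside the main results below. The 7 muscle fibre genes checked against the tissue label summed to 40271 to 89234 CPM per library, and none was at 0.

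**Figure D1:**
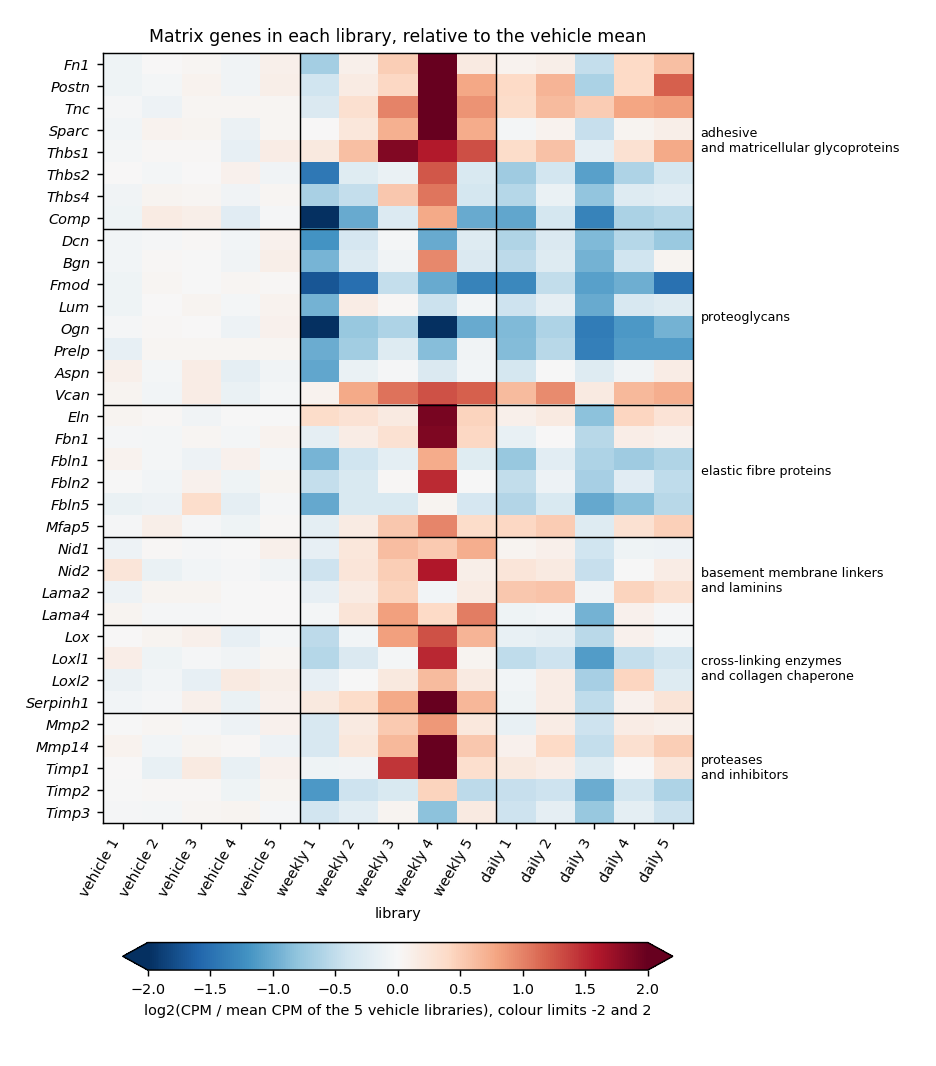
Level of each of the 35 matrix genes (rows, grouped by role) in each library (columns) as log2 of its CPM over the mean CPM of the 5 vehicle libraries. The vehicle columns are nearly uniform, weekly 4 is high for most genes outside the proteoglycans, and the rows of Fmod and Ogn are low in all 10 prednisone libraries.

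All 35 genes passed the filter on low values (at least 1 CPM in at least 5 libraries) and had at least 4.80 CPM in every library. Changes are log2 differences ± SE on the log2(CPM + 0.5) scale from limma, and a gene was called at a Benjamini-Hochberg adjusted p under 0.05 over all 14059 genes tested. With weekly prednisone 3 of the 35 genes rose (Thbs1, Vcan and Serpinh1), where 6.99% of all genes were called higher. Another 3 fell (Fmod, Ogn and Prelp), where 1.07% of all genes were called lower. With daily prednisone none rose, where 1.76% of all genes did, and 3 fell, again Fmod, Ogn and Prelp, where 2.13% of all genes did. An unadjusted p under 0.05 was reached by 14 of the 35 genes in that comparison, in either direction (16.6% of all genes). On recovered reads edgeR and DESeq2 called 2 and 3 of the 35 higher (5.89% and 6.54% of all genes). Both comparisons use the same 5 vehicle libraries, so their results are not independent of each other.

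Without weekly 4, 4 of the 35 rose with weekly prednisone (9.39% of all genes) and 7 fell (1.83% of all genes). In the same fit 2 rose with daily prednisone (4.19% of all genes) and 10 fell (6.4% of all genes). Without weekly 1 instead, 10 rose with weekly prednisone (9.11% of all genes) and 6 fell with daily prednisone (2.43% of all genes). Leaving out a weekly library changes the pooled spread, the filter and the adjustment, and leaves the daily changes themselves as they were. With TMM scaling 2 rose and 6 fell with weekly prednisone (5.72% and 4.22% of all genes), and 2 rose and 4 fell with daily prednisone (5.58% and 3.49% of all genes). On the deposited scale the median change of all genes was 0.17 for weekly against vehicle and -0.08 for daily against vehicle, and TMM scaling moved these to 0.01 and 0.00. The median of the 35 genes was 0.17 and -0.10 on the deposited scale and -0.01 and -0.02 with TMM scaling.

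**Figure D2:**
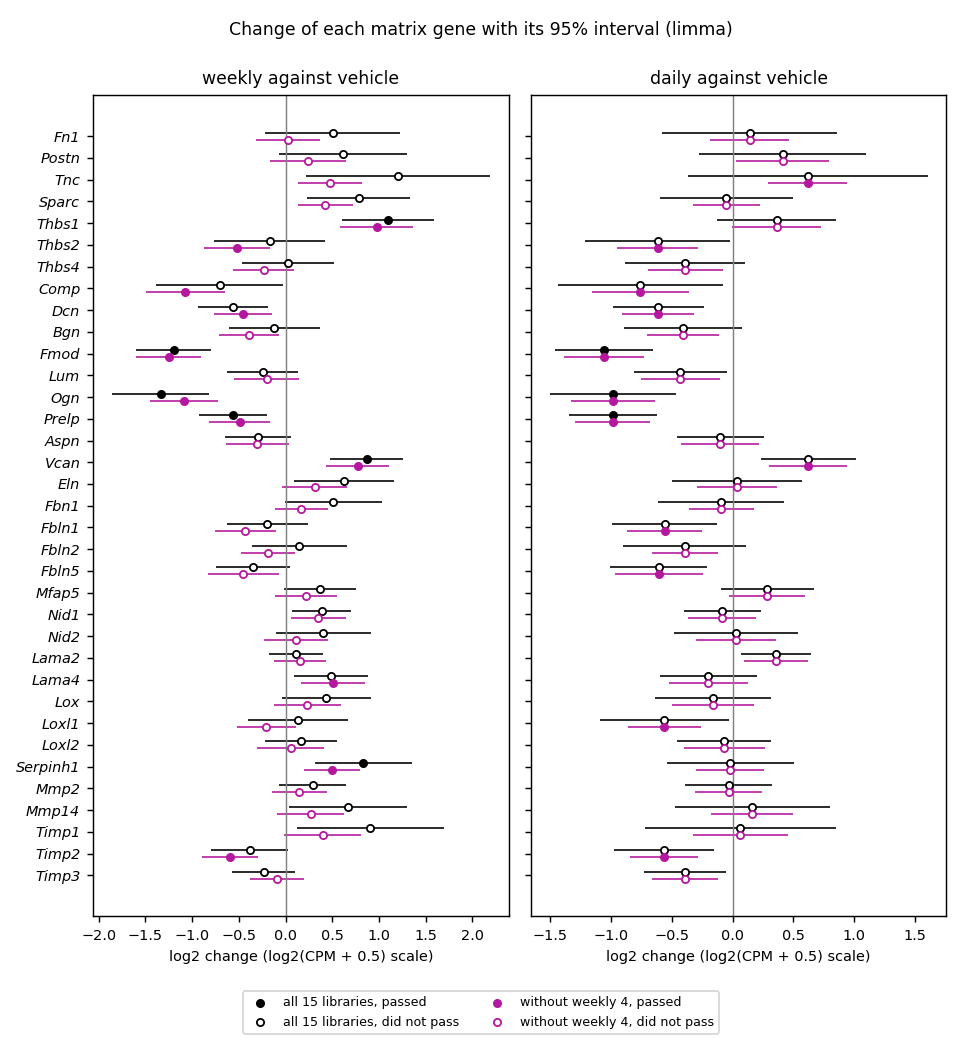
Change of each of the 35 matrix genes (log2, with its 95% interval from limma) in weekly against vehicle (left) and daily against vehicle (right), with all 15 libraries (black) and without weekly 4 (magenta), filled where the adjusted p was under 0.05. Fmod, Ogn and Prelp are filled below 0 in both panels, Thbs1, Vcan and Serpinh1 are filled above 0 on the left, and intervals are shorter without weekly 4.

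Of the 8 proteoglycans, 3 fell and 1 rose with weekly prednisone and 3 fell with daily prednisone. Their median change was -0.43 for weekly and -0.52 for daily, against 0.17 and -0.08 for all genes. Fmod encodes fibromodulin, a small leucine-rich proteoglycan that binds collagen fibrils and is abundant in tendon. It was at 109, 119, 114, 118 and 117 CPM in vehicle 1 to 5, at 35.1, 40.8, 83.2, 57.5 and 45.5 CPM in weekly 1 to 5 and at 47.2, 81.9, 54.4, 58.4 and 41.2 CPM in daily 1 to 5. Every prednisone library lay below every vehicle library, and weekly 4 and daily 3 lay inside the range of their groups. Means were 115 ± 4.24, 52.4 ± 19.1 and 56.6 ± 15.6 CPM (SD, n = 5 each). Fmod changed by -1.20 ± 0.20 (adjusted p = 0.000531) with weekly and by -1.06 ± 0.20 (adjusted p = 0.00216) with daily prednisone. The values were -1.25 ± 0.17 (adjusted p = 6.28e-07) and -1.06 ± 0.16 (adjusted p = 5.32e-06) without weekly 4. It was called in both comparisons under all 29 alternative settings.

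Ogn encodes osteoglycin (mimecan), another small proteoglycan that binds collagen. It was at 52.2, 53.8, 53.3, 49.8 and 56.5 CPM in the vehicle libraries, 12.9, 31.6, 34.5, 10.1 and 26.3 CPM in the weekly and 28.9, 34.5, 20.1, 23.9 and 27.6 CPM in the daily libraries. As with Fmod, no prednisone library reached the lowest vehicle library, and weekly 4 held the lowest value of all, 0.382 times the mean of the other 4 weekly libraries. Ogn fell by 1.34 ± 0.25 (adjusted p = 0.00194) with weekly prednisone on the log2 scale, and its change was -1.09 ± 0.18 (adjusted p = 2.11e-05) without weekly 4. With daily prednisone it changed by -0.99 ± 0.25 (adjusted p = 0.0261), and without weekly 4 by -0.99 ± 0.17 (adjusted p = 4.06e-05). Its lowest value rests on 28 reads. The weekly call held under all 29 alternatives. The daily call held under 21 of 29 and was lost without any 1 of the 5 vehicle libraries or without daily 3, 4 or 5, with changes of -1.01 to -0.89 and adjusted p of 0.0559 to 0.0727.

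Prelp encodes prolargin, a proteoglycan that links basement membranes to collagen. It was at 45.5, 52.3, 52.1, 51.9 and 51.9 CPM in the vehicle libraries, 25.6, 31.4, 42.5, 28 and 48.4 CPM in the weekly and 27.8, 34.6, 19.7, 23.4 and 23.4 CPM in the daily libraries. All daily libraries lay below all vehicle libraries, whereas weekly 5 lay above vehicle 1. The daily change was -0.99 ± 0.17 (adjusted p = 0.00145), called under all 29 alternatives, and the weekly change was -0.56 ± 0.17 (adjusted p = 0.0484). The weekly call held under 17 of 29 alternatives. It was lost without any 1 vehicle library (-0.60 to -0.55, adjusted p 0.0725 to 0.104), without weekly 1 or 2 (-0.53 to -0.46, adjusted p 0.0677 to 0.0941) and without daily 1, 4 or 5 (adjusted p 0.0598 to 0.0615). A pseudocount of 0.1 (adjusted p = 0.0508) and a replicate block (adjusted p = 0.0629) also lost it. It was -0.49 with adjusted p = 0.0392 without weekly 4. Exons of Prelp overlap an antisense transcript over 9.68% of their bases. How the authors' counting treated the strand was not given in the sources used here.

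Dcn encodes decorin, which regulates fibril width and binds TGF-beta, and had the highest vehicle level per kilobase of exon among the 35 genes (100.1 CPM per kb). It was at 187, 192, 198, 187 and 206 CPM in the vehicle, 85.2, 154, 188, 96.4 and 162 CPM in the weekly and 129, 159.6, 105, 130.4 and 117 CPM in the daily libraries, so that all daily libraries and all weekly libraries but weekly 3 lay below the vehicle range. Its changes were -0.56 ± 0.18 (adjusted p = 0.0543) with weekly and -0.61 ± 0.18 (adjusted p = 0.062) with daily prednisone, just outside the threshold. They were -0.45 ± 0.16 (adjusted p = 0.0491) and -0.61 ± 0.15 (adjusted p = 0.00348) without weekly 4. With TMM scaling the weekly change was -0.75 ± 0.17 (adjusted p = 0.00871). Each change was called under 11 of 29 alternatives, the daily one not with TMM scaling of all libraries.

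Lum (lumican), Bgn (biglycan) and Aspn (asporin), 3 further small leucine-rich proteoglycans, passed in no comparison on the deposited scale, with or without weekly 4. Lum was at 33.4 to 37.1 CPM in the vehicle, 18.4 to 39.3 CPM in the weekly and 17.7 to 31.2 CPM in the daily libraries, with all daily libraries below all vehicle libraries. Bgn was at 88.3 to 101, 48.9 to 181 and 48.3 to 97.1 CPM in the same order, its highest weekly value being that of weekly 4. Aspn, which lies beside Ogn, was at 21.7 to 27.2, 11.9 to 24.2 and 19.3 to 27 CPM, overlapping in all groups. The difference between Aspn and its neighbour Ogn was not tested.

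Vcan encodes versican, a large chondroitin sulfate proteoglycan of provisional and growing matrix, and was the proteoglycan that rose. It was at 30.6, 28.4, 32.7, 27 and 28.7 CPM in the vehicle, 30.8, 50, 62.7, 71.2 and 67.8 CPM in the weekly and 45.6, 57.1, 33.3, 46.3 and 49.1 CPM in the daily libraries. All daily libraries and all weekly libraries but weekly 1 lay above every vehicle library. With weekly prednisone it rose by 0.87 ± 0.19 (adjusted p = 0.00594), and by 0.77 ± 0.17 (adjusted p = 0.001) without weekly 4, and it was called under all 29 alternatives. The daily change was 0.62 ± 0.19 (adjusted p = 0.0703), with adjusted p = 0.00593 without weekly 4 and a change of 0.71 ± 0.14 (adjusted p = 0.0036) with TMM scaling, and it was called under 12 of 29 alternatives.

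**Figure D3:**
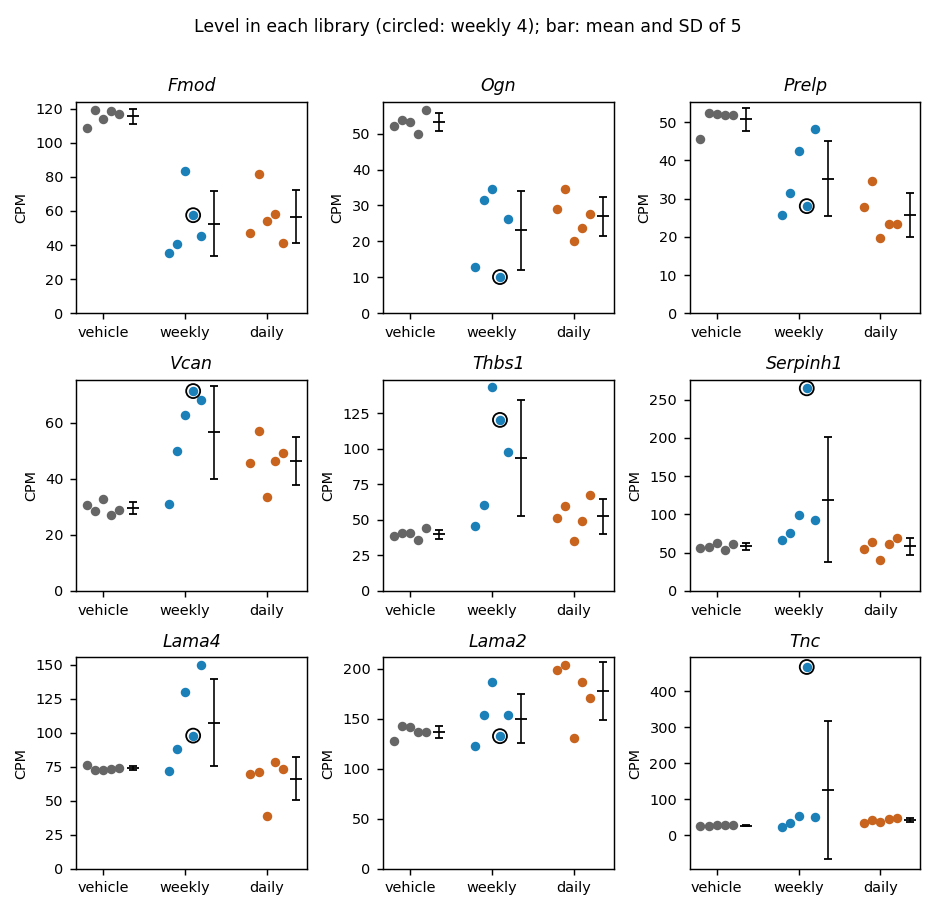
CPM in each library for 9 of the matrix genes by group, with weekly 4 circled and the mean and SD of the 5 libraries beside each group. Fmod, Ogn and Prelp are lower in the prednisone groups, Vcan and Thbs1 are higher in most weekly libraries, and weekly 4 lies far above the rest in Tnc and Serpinh1.

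Among the 8 adhesive and matricellular glycoproteins, Thbs1 rose with weekly prednisone and none passed with daily prednisone when all libraries were used. Thbs1 encodes thrombospondin-1, which activates latent TGF-beta and restrains vessel growth. It was at 39, 40.5, 40.6, 35.6 and 44.1 CPM in the vehicle, 45.8, 60.3, 143, 120.5 and 97.6 CPM in the weekly and 51.5, 59.8, 35.2, 49.2 and 67.8 CPM in the daily libraries. Every weekly library lay above every vehicle library, and within the weekly group the values span from weekly 1, just above the vehicle range, to weekly 3. The weekly change was 1.10 ± 0.24 (adjusted p = 0.00545), and 0.98 ± 0.19 (adjusted p = 0.000288) without weekly 4, called under all 29 alternatives. The daily change was 0.36 ± 0.24 (adjusted p = 0.465), with daily 3 below the vehicle range on the deposited scale. With TMM scaling every daily library lay above every vehicle library, as in 10% of all genes, with group means of 56.4 and 40.8.

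Thbs2 and Comp, 2 relatives of Thbs1, were lower than in vehicle in every prednisone library other than weekly 4. Comp (cartilage oligomeric matrix protein, a tendon and cartilage thrombospondin) was at 26.7, 31.7, 30.7, 24.2 and 27.9 CPM in the vehicle, 6.27, 14.1, 23.3, 47.8 and 14.1 CPM in the weekly and 13.7, 22.1, 11.2, 18.2 and 19.1 CPM in the daily libraries. All prednisone libraries but weekly 4 lay below the vehicle range, and weekly 4 lay above it. With all libraries the changes did not pass, at -0.71 ± 0.33 (adjusted p = 0.186) and -0.76 ± 0.33 (adjusted p = 0.237). Without weekly 4 they were -1.07 ± 0.21 (adjusted p = 0.000248) and -0.76 ± 0.20 (adjusted p = 0.0074). They were called under 5 and 6 of 29 alternatives, and not with TMM scaling of all libraries.

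Thbs2, thrombospondin-2, a matricellular regulator of fibril assembly, was at 55.1, 53.6, 55.4, 58.4 and 52.3 CPM in the vehicle, 20.4, 46.6, 49.9, 129 and 44.5 CPM in the weekly and 33.5, 42.7, 25.9, 36 and 43.2 CPM in the daily libraries. It repeats the pattern of Comp, with weekly 4 alone above the vehicle range. Its changes were -0.17 ± 0.29 (adjusted p = 0.751) and -0.62 ± 0.29 (adjusted p = 0.282) with all libraries, and -0.52 ± 0.18 (adjusted p = 0.0459) and -0.62 ± 0.17 (adjusted p = 0.00987) without weekly 4. Without weekly 1 the weekly change turned positive, at 0.14. The weekly and daily changes of Thbs2 were called under 4 and 6 of 29 alternatives, and not with TMM scaling of all libraries. Thbs4, which is found in tendon and muscle, was at 215 to 234 CPM in the vehicle, 144 to 477 CPM in the weekly and 131 to 207 CPM in the daily libraries and passed in no comparison.

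Tnc encodes tenascin-C, which is scarce in resting muscle and made at sites of repair. It was at 26.5, 25.2, 27.5, 27.5 and 27.7 CPM in the vehicle, 22, 33.7, 53.6, 468 and 50.2 CPM in the weekly and 34.8, 41.8, 38.3, 46.3 and 48.1 CPM in the daily libraries. All daily libraries lay above all vehicle libraries, daily 3 included, and weekly 4 was 11.7 times the mean of the other weekly libraries. With all libraries the changes were 1.20 ± 0.48 (adjusted p = 0.121) and 0.62 ± 0.48 (adjusted p = 0.554). Without weekly 4 the daily change passed, at 0.62 ± 0.16 (adjusted p = 0.00737), and the weekly one did not, at 0.48 ± 0.17 (adjusted p = 0.0619). The daily change was called under 6 of the 28 alternatives that gave an adjusted p, and not with TMM scaling of all libraries or edgeR.

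Fn1 (fibronectin, the scaffold of provisional matrix), Postn (periostin, a repair-linked matricellular protein) and Sparc (osteonectin, a collagen-binding glycoprotein) passed against vehicle in neither comparison. Fn1 was at 285 to 323 CPM in the vehicle and 216 to 459 CPM in the daily libraries, and at 189, 324, 425, 1607 and 341 CPM in weekly 1 to 5. Postn was at 55.4 to 63.4 CPM in the vehicle, 37.9 to 135 CPM in the daily and 44.3, 65.6, 78.4, 259 and 99.8 CPM in the weekly libraries. Sparc was at 124 to 141 CPM in the vehicle, 97.4 to 145 CPM in the daily and 135, 158, 221, 628 and 226 CPM in the weekly libraries. Weekly 4 is the highest library for all 3 genes. Its removal took the weekly change of Fn1 from 0.50 to 0.03, of Postn from 0.62 to 0.24 and of Sparc from 0.78 to 0.42, none of which passed.

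None of the 6 elastic fibre genes passed against vehicle with all libraries. Without weekly 4 a pair of fibulins, Fbln5 and Fbln1, fell with daily prednisone. Fbln5 (fibulin-5, needed to assemble elastin) was at 8.89, 9.13, 12.5, 8.63 and 9.61 CPM in the vehicle, 4.81, 7.87, 7.85, 10.1 and 7.74 CPM in the weekly and 6.51, 7.88, 4.8, 5.44 and 6.65 CPM in the daily libraries. Fbln1 (fibulin-1, a matrix glycoprotein that binds fibronectin and elastic fibres) was at 21.9, 20.4, 19.5, 22.2 and 20.2 CPM, 10.9, 15.7, 18.2, 34.9 and 17.5 CPM and 12.3, 18.1, 13.6, 12.8 and 13.7 CPM in the same order. In both genes all daily libraries and all weekly libraries but weekly 4 lay below all vehicle libraries. The daily changes without weekly 4 were -0.61 ± 0.18 (adjusted p = 0.0201) for Fbln5 and -0.56 ± 0.15 (adjusted p = 0.012) for Fbln1, and with all libraries -0.61 ± 0.19 (adjusted p = 0.0865) and -0.56 ± 0.21 (adjusted p = 0.158). They were called under 11 and 7 of 29 alternatives, and that of Fbln1 not with TMM scaling of all libraries. The weekly changes without weekly 4 did not pass, at -0.45 ± 0.19 (adjusted p = 0.123) and -0.43 ± 0.16 (adjusted p = 0.0811), and daily and weekly libraries differed by -0.16 ± 0.19 (adjusted p = 0.587) and -0.13 ± 0.16 (adjusted p = 0.602). With TMM scaling Fbln5 fell in both comparisons, by 0.52 ± 0.15 (adjusted p = 0.0392) on the log2 scale with weekly and 0.53 ± 0.15 (adjusted p = 0.0385) with daily prednisone.

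The other 4 elastic fibre genes are Fbn1 (fibrillin-1, the microfibril backbone), Eln (elastin), Fbln2 (fibulin-2) and Mfap5 (a microfibril-associated protein). Vehicle levels were 185 to 198 CPM for Fbn1, 17.7 to 19.4 CPM for Eln, 51.8 to 57.9 CPM for Fbln2 and 17 to 19.5 CPM for Mfap5. Daily levels were 129 to 207, 10.5 to 25.1, 34.5 to 51.4 and 15.2 to 25.7 CPM in that order. Eln was at 23.9, 22.8, 21.1, 69.4 and 25.3 CPM in the weekly libraries, all of them above the vehicle range, yet its change of 0.63 ± 0.26 (adjusted p = 0.137) did not pass. All daily libraries of Fbln2 lay below the vehicle range. Fbn1 shares 20.3% of its exon bases with a gene on the opposite strand, the largest such share among the 35 genes.

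Of the 4 basement membrane genes none passed against vehicle with all libraries. Lama4, the laminin alpha chain of vessels and the endoneurium, was at 76.6, 72.6, 72.9, 73.2 and 74 CPM in the vehicle, 71.5, 87.9, 130.2, 97.8 and 149.8 CPM in the weekly and 69.4, 71.2, 38.4, 78.7 and 73 CPM in the daily libraries. Weekly 2 to 5 lay above every vehicle library and weekly 1 below, and weekly 5, not weekly 4, was highest. The weekly change was 0.49 ± 0.19 (adjusted p = 0.119) with all libraries and 0.51 ± 0.17 (adjusted p = 0.0451) without weekly 4. It was called under 8 of 29 alternatives, and not with TMM scaling of all libraries. Nid1 and Nid2, the nidogens that join laminin to collagen IV, were at 86.3 to 99.5 and 14.2 to 18.3 CPM in the vehicle, 82.4 to 153 and 11.6 to 47.1 CPM in the weekly and 70.3 to 98.9 and 11.3 to 18.4 CPM in the daily libraries.

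Lama2, the laminin alpha chain of the muscle fibre's own basement membrane, whose loss causes a congenital muscular dystrophy, is named here after its values were seen. It was at 128, 142, 142, 136 and 137 CPM in the vehicle, 123, 154, 186, 133 and 154 CPM in the weekly and 199, 204, 131, 186 and 171 CPM in the daily libraries. Daily 1, 2, 4 and 5 lay above the vehicle range and daily 3, the library with the large share in Gm26924 and Lars2, lay inside it. On the deposited scale the daily change was 0.36 ± 0.14 (adjusted p = 0.175) against vehicle and 0.24 ± 0.14 (adjusted p = 0.249) against weekly. With TMM scaling these were 0.45 ± 0.10 (adjusted p = 0.00616) and 0.51 ± 0.10 (adjusted p = 0.00455), both called. The changes against vehicle and against weekly were called under 9 and 6 of 29 alternatives, and neither without weekly 4 on the deposited scale.

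Serpinh1, the collagen chaperone HSP47, was the gene of the cross-linking and folding group that rose with weekly prednisone. It was at 56, 57.4, 62.5, 53.1 and 61.8 CPM in the vehicle, 66.6, 75.2, 98.6, 265 and 92.2 CPM in the weekly and 54.6, 64.5, 41, 61.5 and 69.4 CPM in the daily libraries. All weekly libraries lay above all vehicle libraries, weekly 4 most of all. The change was 0.83 ± 0.25 (adjusted p = 0.0432) and, without weekly 4, 0.50 ± 0.15 (adjusted p = 0.0192). The call held under 16 of 29 alternatives. It was lost with TMM scaling (0.65, adjusted p = 0.077), with the 2-group fit (adjusted p = 0.0901), without any 1 vehicle library (0.80 to 0.86, adjusted p 0.0748 to 0.098), without weekly 3 or 5 (0.85 and 0.88, adjusted p 0.0722 and 0.064) and without daily 1, 2, 4 or 5 (adjusted p 0.0524 to 0.0565).

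Lox, Loxl1 and Loxl2 are lysyl oxidases, which cross-link collagen and elastin. Loxl1 was at 35.7, 30.7, 31.8, 30.9 and 33.6 CPM in the vehicle, 21.9, 26.5, 31.6, 92.4 and 33.9 CPM in the weekly and 23, 24.5, 15, 23.4 and 25.1 CPM in the daily libraries, so that every daily library lay below every vehicle library. Its daily change was -0.56 ± 0.26 (adjusted p = 0.273) with all libraries and -0.56 ± 0.15 (adjusted p = 0.00847) without weekly 4. It was called under 6 of 29 alternatives, and not with TMM scaling of all libraries. Lox was at 29.2 to 35.1, 22.7 to 78.8 and 22.5 to 34.5 CPM in vehicle, weekly and daily libraries, and Loxl2 at 11.7 to 14.8, 11.6 to 20.1 and 8.21 to 17.6 CPM. Neither passed in any comparison. Their intervals in the plot of changes span 0.

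No metalloproteinase or inhibitor among the 35 passed against vehicle with all libraries. Timp2, an inhibitor of metalloproteinases that also takes part in the activation of Mmp2, was at 115, 117, 118, 109 and 120.4 CPM in the vehicle, 52.2, 87.6, 93.7, 158 and 81 CPM in the weekly and 84.5, 86.7, 58.5, 90.4 and 75.5 CPM in the daily libraries. All prednisone libraries but weekly 4 lay below the vehicle range. Its changes were -0.39 ± 0.20 (adjusted p = 0.232) and -0.57 ± 0.20 (adjusted p = 0.124) with all libraries and -0.59 ± 0.15 (adjusted p = 0.00465) and -0.57 ± 0.14 (adjusted p = 0.00459) without weekly 4. With TMM scaling the weekly change passed, at -0.57 ± 0.16 (adjusted p = 0.031), and the daily one did not, at -0.48 ± 0.16 (adjusted p = 0.0712). Timp1, an inhibitor induced in inflammation, was at 7.49 to 9.5 CPM in the vehicle, 7.88, 7.96, 22.5, 68 and 10.6 CPM in the weekly and 6.97 to 9.84 CPM in the daily libraries, with weekly 3 and weekly 4 above the rest. Timp3, which binds to the matrix, was at 56.3 to 60, 32.7 to 65.8 and 34.2 to 50.9 CPM in vehicle, weekly and daily libraries, all daily libraries lying below the vehicle range. The gelatinase Mmp2 was at 67.5 to 76.5, 57.9 to 132 and 53.9 to 80 CPM, and the membrane-bound Mmp14, which activates Mmp2, at 16.6 to 18.9, 14.3 to 88.5 and 12.9 to 25.2 CPM.

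Counting libraries that do not overlap gives a view that does not use the pooled spread. All 5 daily libraries lay below all 5 vehicle libraries in 14 of the 35 genes, against 8.82% of all genes tested. These were Fmod, Ogn, Prelp, Dcn, Lum, Comp, Thbs2, Thbs4, Fbln1, Fbln2, Fbln5, Loxl1, Timp2 and Timp3. In 2 genes, Vcan and Tnc, all daily libraries lay above (2.45% of all genes). All weekly libraries lay above all vehicle libraries in 3 genes, Thbs1, Serpinh1 and Eln (11.8% of all genes), and below in 2, Fmod and Ogn (1.66% of all genes). Without weekly 4 they lay above in the same 3 genes (16.1% of all genes) and below in 7, Fmod, Ogn, Comp, Thbs2, Fbln1, Fbln5 and Timp2 (3.17% of all genes). With TMM scaling the weekly libraries lay above in 2 and below in 7 genes (5.36% and 4.44% of all genes), and without weekly 4 above in 2 and below in 14 (8.4% and 7.08% of all genes). On the deposited scale daily 3 lay below the lowest vehicle library in 32 of the 35 genes and in 77.7% of all genes. With TMM scaling 13 of the 35 genes lay below vehicle in all daily libraries (9.63% of all genes). Another 5 lay above (10% of all genes), Lama2, Vcan, Tnc, Mfap5 and Thbs1.

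Daily and weekly prednisone were also compared directly, with the 2 groups' libraries set against each other. Daily libraries were lower in 2 genes, Lama4 and Serpinh1 (8.24% of all genes called lower), and higher in none (0.484% of all genes). At an unadjusted p under 0.05 there were 12 genes in either direction (28.5% of all genes), and edgeR and DESeq2 on recovered reads called 1 gene higher each (2.08% and 2.92% of all genes). The median change was -0.36 for the 35 genes and -0.24 for all genes. Lama4 changed by -0.69 ± 0.19 (adjusted p = 0.0305) and Serpinh1 by -0.85 ± 0.25 (adjusted p = 0.0382). Without weekly 4, 6 genes were lower (12.3% of all genes) and none higher (1.22% of all genes), and without weekly 1 there were 9 lower (10.4% of all genes). With TMM scaling 1 gene, Lama2, was higher (2.08% of all genes) and none lower (2.64% of all genes). In Lama4, 4 of the 5 daily libraries were at 69.4 to 78.7 CPM and daily 3 at 38.4, and all weekly libraries but weekly 1 lay above them, whereas in Fmod and Ogn both prednisone groups overlapped, with differences of 0.14 ± 0.20 (adjusted p = 0.678) and 0.35 ± 0.25 (adjusted p = 0.365).

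The 6 genes lower in daily than in weekly libraries without weekly 4 were Lama4 at -0.71 ± 0.17 (adjusted p = 0.00351), Serpinh1 at -0.52 ± 0.15 (adjusted p = 0.0143), Thbs1 at -0.61 ± 0.19 (adjusted p = 0.0281), Sparc at -0.47 ± 0.15 (adjusted p = 0.0239), Prelp at -0.49 ± 0.16 (adjusted p = 0.0351) and Nid1 at -0.44 ± 0.15 (adjusted p = 0.0403). Their roles differ, spanning laminin, nidogen, chaperone, matricellular proteins and 1 proteoglycan. Sparc, Thbs1, Nid1 and Prelp were called in this comparison under 8, 5, 5 and 2 of 29 alternatives. None of these was called with TMM scaling, with or without weekly 4, or with edgeR or DESeq2. In none of the 35 genes did the 5 daily and the 5 weekly libraries separate without overlap on the deposited scale. Of all genes, 0.235% lay above and 6.98% below in this way. With TMM scaling the daily libraries lay above the weekly ones in 1 gene, Lama2 (2.54% of all genes), and below in none (2.50%). The call for Lama4 with all libraries held under 23 of 29 alternatives and was lost without weekly 3 or 5 (-0.61 and -0.56, adjusted p 0.082 and 0.0881), without daily 3 (-0.50, adjusted p = 0.077), with TMM scaling (-0.42, adjusted p = 0.0782), with the 2-group fit (adjusted p = 0.129) and with edgeR (-0.46, adjusted p = 0.0559). The call for Serpinh1 held under 13 of 29. It was lost with TMM scaling (-0.59, adjusted p = 0.156), also with TMM scaling without weekly 4 and daily 3 (-0.29, adjusted p = 0.0567), with the 2-group fit (adjusted p = 0.134), edgeR (-0.72, adjusted p = 0.102) and DESeq2 (-0.74, adjusted p = 0.0504), without any 1 vehicle library (adjusted p 0.0512 to 0.052), without weekly 3 or 5 (adjusted p 0.0676 and 0.0622) and without daily 1, 3, 4 or 5 (-0.92 to -0.73, adjusted p 0.0542 to 0.129).

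Weekly 4 differed from the other weekly libraries by different amounts in genes of different roles, which was not tested. Over the 35 genes its median ratio to the mean of the other 4 weekly libraries was 2.01, against 1.07 for all genes tested, and 18 of 35 genes were over 2-fold higher, against 15.1% of all genes. Among the adhesive and matricellular glycoproteins 7 of 8 were over 2-fold higher, led by Tnc at 11.7 and Fn1 at 5.03 times. Among the proteoglycans 1 of 8 was (Bgn, 2.49 times). Another 5 of the 8 were lower, where 45.1% of all genes were, with Ogn at 0.382 and Dcn at 0.654 times. Timp1 was 5.55 times and Mmp14 3.96 times higher, while Timp3 was at 0.595 times the others. The range of the weekly group outside weekly 4 was wide too: weekly 1 had 29 of the 35 genes below the vehicle range (26.7% of all genes), whereas weekly 3 had 20 above it (51.9% of all genes).

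**Figure D4:**
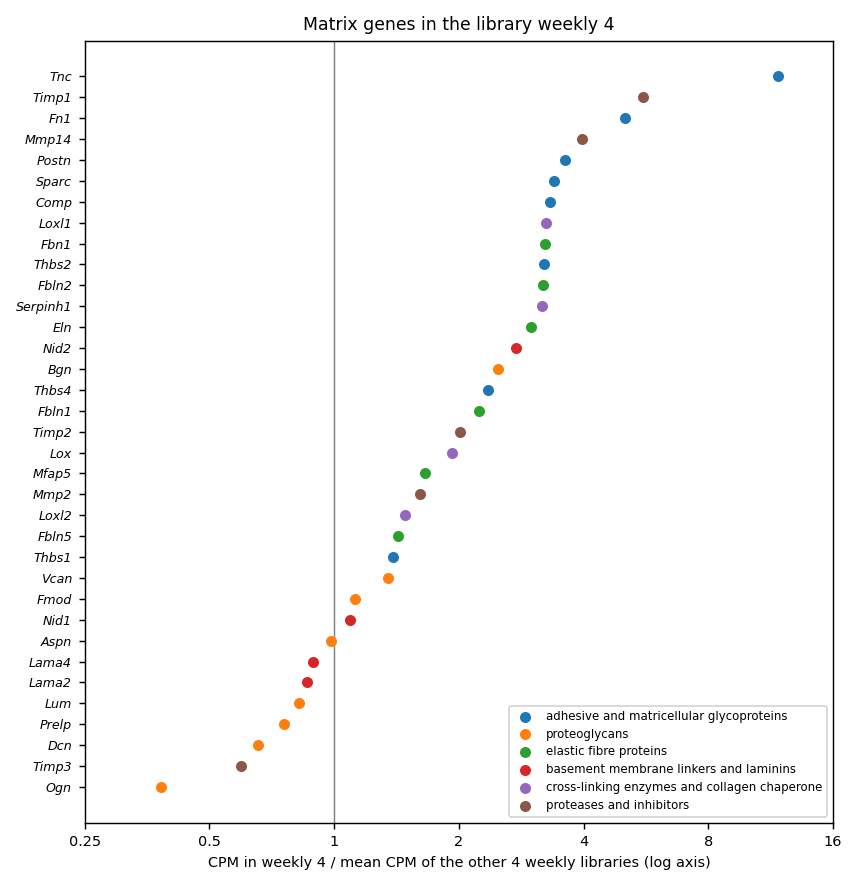
CPM of each of the 35 matrix genes in weekly 4 divided by the mean CPM of the other 4 weekly libraries, on a log axis and coloured by role. Glycoproteins and elastic fibre genes lie mostly above 2, Tnc is highest at 11.7, and proteoglycans lie mostly near or below 1, with Ogn lowest at 0.382.

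Markers of other cells moved with some of these values, and in whole muscle fewer cells of a type and less RNA per cell cannot be told apart. In weekly 4 the 9 macrophage markers in the table summed to 1610 CPM, against 177 to 454 in the other weekly, 399 to 435 in the vehicle and 259 to 523 in the daily libraries. The 4 regenerating fibre markers summed to 747 CPM there and to 151 to 193 in the other weekly libraries. The 8 fibroblast markers summed to 18583 CPM there and to 1567 to 2291 in the other weekly libraries, almost all of it in Col1a1 and Col3a1, without which the other 6 summed to 250.3 and to 125 to 207. No marker of these lists was at 0 in any library. Their part in the weekly 4 values was not tested.

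Other marker lists differed between the groups. The 5 adipocyte markers summed to 281 to 311 CPM in the vehicle, 287 to 1778 in the weekly (weekly 4 lowest) and 99.9 to 219 in the daily libraries. The 5 endothelial markers summed to 203 to 216, 211 to 364 and 138 to 213 CPM, and the 5 Schwann cell markers to 26.9 to 32.1, 37.4 to 53.3 and 31.4 to 46.3 CPM, in the same order. In the weekly libraries the Schwann sum thus lay above the vehicle range throughout, as Lama4 did in weekly 2 to 5 but not in weekly 1. The Schwann sum also lay above it in daily 1, 2, 4 and 5, whereas among daily libraries Lama4 did so only in daily 4. The 6 smooth muscle and pericyte markers summed to 354 to 367, 330 to 461 and 204 to 324 CPM, and the 2 blood markers in the table to 69.1 to 76.1, 36.01 to 67.8 and 17.5 to 32.8 CPM. The 7 muscle fibre genes summed to 67118 to 69145, 53542 to 89234 and 40271 to 63072 CPM. The daily sums of muscle fibre, adipocyte, smooth muscle and blood markers thus lay below the vehicle range in every library, as did the 14 matrix genes listed above. The part of these cells in the matrix values was not tested.

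The tendon cell list holds 8 genes, of which Fmod, Comp and Thbs4 are also among the 35 and Kera also stands in a list below. With weekly prednisone 3 of the 8 fell (Fmod, Kera and Mkx), where 1.07% of all genes did. With daily prednisone 1 fell (Fmod), where 2.13% of all genes did. Without weekly 4 the counts were 5 and 3 (1.83% and 6.4% of all genes), with Comp and Chad added in both. The other 5 markers summed to 29.9 to 35.04 CPM in the vehicle, 13.7 to 29.2 in the weekly and 16.4 to 33.7 in the daily libraries, and none was at 0. The sum was thus below the vehicle range in all weekly libraries, as Fmod was. The margin was small, with the highest weekly sum at 29.19 CPM and the lowest vehicle sum at 29.86 CPM. Among daily libraries the sum overlapped the vehicle range, whereas Fmod lay below it in every one. The lowest single value of these markers was 0.360 CPM, for Kera. Of the defining tendon genes, Tnmd (tenomodulin) changed by -0.27 ± 0.23 (adjusted p = 0.485) and -0.13 ± 0.23 (adjusted p = 0.819), and Scx (scleraxis) by -0.34 ± 0.33 (adjusted p = 0.542) and -0.71 ± 0.33 (adjusted p = 0.286). Their part in the lower Fmod values was not tested. The 8 fibroblast markers gave 1 higher (Col1a1) and 1 lower (Dpp4) gene with weekly prednisone (6.99% and 1.07% of all genes). They gave none with daily prednisone (1.76% and 2.13% of all genes). Without weekly 4, Col1a1 also rose and Dpp4 and Thy1 fell with daily prednisone (4.19% and 6.4% of all genes). All 8 summed to 1316 to 1494 CPM in the vehicle and 1410 to 2599 CPM in the daily libraries. Outside Col1a1 and Col3a1 they summed to 174 to 194 CPM in the vehicle and 111 to 176 CPM in the daily libraries.

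The rest of the matrix network was read from 6 written lists, with the share of all genes called in brackets. Among 35 other matrix proteases and inhibitors, 13 rose and none fell with weekly prednisone (6.99% and 1.07%). With daily prednisone 4 rose and none fell (1.76% and 2.13%). Adamts4, an aggrecanase that also cuts versican, rose by 2.99 ± 0.28 (adjusted p = 7.67e-07) with weekly and 1.89 ± 0.28 (adjusted p = 0.000322) with daily prednisone. Adamts9, a related proteoglycan-cutting protease, rose by 1.80 ± 0.20 (adjusted p = 8.02e-06) and 1.20 ± 0.20 (adjusted p = 0.000911). In direct comparison 8 of the 35 were lower with daily than with weekly prednisone (8.24%), led by the gelatinase Mmp9 at -1.92 ± 0.38 (adjusted p = 0.00385). Without weekly 4, 13 of 34 tested rose with weekly prednisone (9.39%), and 10 rose and 1 fell with daily prednisone (4.19% and 6.4%). The list's median change was 0.49 for weekly and 0.20 for daily against vehicle.

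Among 17 other basement membrane genes, none passed with daily prednisone (1.76% of all genes higher and 2.13% lower). With weekly prednisone 6 rose and none fell (6.99% and 1.07%). These include the laminin chains Lamb1 at 0.96 ± 0.22 (adjusted p = 0.00882) and Lamc1 at 0.57 ± 0.15 (adjusted p = 0.0195), which assemble with Lama2 and Lama4, and their daily changes were 0.06 ± 0.22 (adjusted p = 0.922) and 0.13 ± 0.15 (adjusted p = 0.706). Without weekly 4 the counts were 7 higher with weekly (9.39%) and 2 with daily prednisone (4.19%). Lamb1 was also lower in daily than in weekly libraries, at -0.90 ± 0.22 (adjusted p = 0.0162). Of 22 other collagen-modifying enzymes 6 rose and 1 fell with weekly (6.99% and 1.07%) and 2 rose and 1 fell with daily prednisone (1.76% and 2.13%). Without weekly 4, 5 rose and 1 fell in each comparison (9.39% and 1.83% for weekly, 4.19% and 6.4% for daily). P4ha1, a prolyl hydroxylase of procollagen, rose by 0.59 ± 0.13 (adjusted p = 0.00919) with weekly prednisone. Pcolce2, an enhancer of procollagen cleavage, was the gene that fell in both, with changes of -1.38 ± 0.23 (adjusted p = 0.000569) and -1.05 ± 0.23 (adjusted p = 0.00832).

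Among 37 other matrix glycoproteins and proteoglycans, 6 rose and 3 fell with weekly prednisone (6.99% and 1.07% of all genes). With daily prednisone 1 rose and 1 fell (1.76% and 2.13%). Without weekly 4, 7 rose and 7 fell with weekly (9.39% and 1.83%) and 3 rose and 8 fell with daily prednisone (4.19% and 6.4%). Kera (keratocan, a small leucine-rich proteoglycan) changed by -1.41 ± 0.41 (adjusted p = 0.0368) with weekly prednisone, Ecm2 by -0.58 ± 0.17 (adjusted p = 0.0451) (not called without weekly 4, at -0.45 ± 0.16 (adjusted p = 0.0664)), and Podn (podocan, also leucine-rich) by -1.01 ± 0.25 (adjusted p = 0.0199) with daily prednisone. The lowest value of Kera was 0.360 CPM, under the 1.08 CPM that 3 reads are worth in weekly 4. Spon1 (spondin-1) rose by 1.41 ± 0.26 (adjusted p = 0.0018) with weekly and 1.32 ± 0.26 (adjusted p = 0.00414) with daily prednisone. Of 15 other elastic fibre genes, 2 rose and 1 fell with weekly (6.99% and 1.07%) and 1 fell with daily prednisone (2.13%). Of 31 matrix receptors 4 rose with weekly (6.99%) and 1 with daily prednisone (1.76%), and none fell. Without weekly 4, 3 of the 15 fell and 1 rose with daily prednisone (6.4% and 4.19%). In that fit 7 receptors rose and 1 fell with weekly (9.39% and 1.83%) and 3 rose and 2 fell with daily prednisone (4.19% and 6.4%). Sdc4, the heparan sulfate receptor syndecan-4, rose by 1.55 ± 0.20 (adjusted p = 5.19e-05) and 0.99 ± 0.20 (adjusted p = 0.00494), and Itga5, the alpha chain of the fibronectin receptor, by 1.13 ± 0.21 (adjusted p = 0.00208) with weekly prednisone. The gene of its ligand, Fn1, did not pass.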

How the data were processed

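Total RNA from about 30 mg of quadriceps per sample (about 1 µg per library) was sequenced as stranded 150 bp pairs, per the labels' protocols. Per the submitters' processing notes, the authors aligned reads with TopHat2 2.1.0 to mm10 (GRCm38), counted with HTSeq and converted with edgeR. How strand was used was not given in the sources used here. Per the labels the deposited unit is RPKM, but the deposited values are CPM: 222090 of 222090 are whole reads within 0.01 reads, with the same step at any gene length. Rows without a gene name (534 of 14806) held 0.276% to 0.447% of values and were left out.

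The test was limma 3.58.1 (R 4.3.3, mean-variance trend) on log2(CPM + 0.5), in 1 fit of all 15 libraries by group. A filter of 1 CPM in 5 libraries kept 14059 genes and removed 213. Adjustment was by Benjamini-Hochberg over all genes. The log2(CPM + 0.5) scale understates changes of low genes. Alternatives were TMM scaling and quasi-likelihood tests (edgeR 4.0.16) and DESeq2 1.42.0 on recovered reads, pseudocounts of 1 and 0.1, other filters, 2-group fits, array weights, a replicate block and leaving out libraries. On simulated counts the test recovered 10.6% of 1.5-fold, 67.2% of 2-fold and 97.0% of 4-fold changes for weekly against vehicle (3 false calls among 14020 genes), 7.46%, 68.2% and 98.5% for daily against vehicle (1 among 14006) and 22.4%, 56.1% and 100% for daily against weekly (33 among 13981). A change of 2-fold or less that did not pass may thus be missed. The simulated counts had 1 common spread per group and no single library set apart as weekly 4 and daily 3 are. Vehicle libraries differed by a chi-square per degree of freedom of 1.51 to 2.05, more than sampling noise gives, so all 5 were kept. The weekly libraries differed by 20.03 to 95.2 and the daily ones by 4.93 to 231, so vehicle libraries were far closer to each other than treated ones.

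The 35 members, the lists and the rules were chosen with earlier results of these data known. By rule a member has its change and p given where it passed with all libraries or without weekly 4, and up to 4 called genes with the smallest p were named per other list. Some members and genes outside this rule are given for completeness. Positions come from GENCODE M21 and promoters from RefSeq GRCm38.p6. Protein sequences were not used here, and 1 called gene of the protease list is not reported here by name.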

Additional observations from a re-analysis of the deposited data

Results flagged for a closer look

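In each of the 105 sets of 5 libraries (35 genes in 3 groups), the gap between the highest or lowest library and its nearest neighbour was compared with the whole range, and 19 sets passed the critical share of 0.71 for 5 samples. Chance flags about 1 in 20 such sets. Weekly 4 accounts for 13 of the 19, each time as the highest weekly library: Fn1 at 1607 CPM, Fbn1 at 695, Sparc at 628, Tnc at 468, Serpinh1 at 265, Postn at 259, Fbln2 at 155, Thbs2 at 129, Loxl1 at 92.4, Mmp14 at 88.5, Eln at 69.4, Timp1 at 68.0 and Nid2 at 47.1 CPM. None of these 13 genes is a proteoglycan.

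The other 6 flags fall on 4 libraries. Daily 3, the library with the large share in Gm26924 and Lars2, was lowest for Lama4 at 38.4 CPM and Loxl1 at 15.02 CPM. Vehicle 1 was lowest for Prelp at 45.5 CPM and highest for Nid2 at 18.3 CPM. Vehicle 3 was highest for Fbln5 at 12.5 CPM, and daily 2 for Fbln1 at 18.1 CPM. Neither Fmod, Ogn, Vcan nor Thbs1 had a library that stood apart in this way in any group.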

How the results depend on the processing

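The calls of Thbs1, Vcan, Fmod and Ogn with weekly prednisone, and of Fmod and Prelp with daily prednisone, held under all 29 alternatives. Counts of members called moved, and the cause was not tested. The share of all genes called under each setting is in brackets. With weekly prednisone (3 higher, 3 lower) the higher count was 9 with array weights per group (11.1%), 18 with weights per library (35%), 5 with TMM scaling without weekly 4 (9.63%) and 7 without weekly 4 and daily 3 (20.3%). The lower count was 6 with TMM scaling (4.22%), weights per library (5.49%), edgeR (4.1%) or DESeq2 (5.29%), 14 with TMM scaling without weekly 4 (7.57%, and 8.14% also without daily 3) and 10 without weekly 4 and daily 3 (3.63%). With daily prednisone (0 higher, 3 lower) the higher count was 2 with TMM scaling (5.58%), weights per group (3.17%) or edgeR (5.89%), 3 with the 2-group fit (4.87%) or DESeq2 (6.54%), 6 with weights per library (15.5%), and 5 without weekly 4 and daily 3 (11%), with TMM scaling without weekly 4 (11.6%) and with TMM scaling without both (10.4%). The lower count was 13 with the 2-group fit (7.38%), 9 with weights per group (5.33%), 14 with weights per library (9.62%) or TMM scaling without weekly 4 (9.86%), 6 with DESeq2 (4.81%), 10 without weekly 4 and daily 3 (6.36%) and 12 with TMM scaling without both (9.94%). For daily against weekly (0 higher, 2 lower) the higher count was 1 with TMM scaling (2.08%, and 6.43% without weekly 4), edgeR (2.08%), DESeq2 (2.92%) or without weekly 4 and daily 3 (3.01%), and 2 with TMM scaling without both (5.75%). The lower count was 0 with TMM scaling (2.64%), the 2-group fit (1.54%) or edgeR (3.23%), 1 with DESeq2 (4.53%) or TMM scaling without both (6.42%), 5 at 5 CPM in 5 libraries (12.5%) and 15 with weights per library (21.2%). The settings without both libraries were chosen after seeing the data.

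Leaving out 1 library at a time gave 2 to 10 members higher (3.93% to 14.2% of all genes) for weekly against vehicle. It gave 2 to 7 lower there (0.664% to 1.83%). For daily against vehicle the counts were 0 to 2 higher (1.2% to 4.19%) and 2 to 10 lower (1.21% to 6.4%). For daily against weekly they were 0 higher (0.293% to 1.22%) and 0 to 9 lower (3.42% to 12.3%). Weekly 4 set the highest lower counts against vehicle, and weekly 1 set the highest counts of 10 higher in weekly against vehicle and 9 lower in daily against weekly. Thbs2 in weekly against vehicle reversed, to 0.14, without weekly 1 (range -0.52 to 0.14). The counts over all genes are given for all 29 alternatives, a wider set than the fits without 1 library. They ranged from 551 to 4918 higher and 93 to 1134 lower (983 and 150 as reported) for weekly against vehicle. For daily against vehicle they ranged from 168 to 2179 and 169 to 1385 (248 and 299). For daily against weekly they ranged from 17 to 898 and 211 to 2975 (68 and 1159).

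Same-numbered libraries showed little joint deviation (correlations of -0.03 to 0.15), and the main fit used no pairing. The same number gave the highest correlation for replicates 1 and 4 in daily against weekly and replicate 4 in daily against vehicle. Vehicle libraries differed little from each other, so this check could miss a pairing. A replicate block gave 3 members higher and 2 lower for weekly against vehicle (6.75% and 1.05% of all genes), with Prelp no longer called. It gave 0 and 3 for daily against vehicle (1.64% and 1.88%) and 0 and 3 for daily against weekly (0.398% and 6.61%). Weekly 4 is the shallowest library. The fewest reads behind a value are 26 for Fbln5 in daily 4 and 28 each for Fbln5 and Ogn in weekly 4.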
